A study of Mus musculus with 8 samples.

Results

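The inflammatory caspases, the gasdermins and the interleukin 1 family cytokines they act on were followed in sorted mouse keratinocytes as 10 genes: Casp1, Casp4, Casp12, Gsdma, Gsdma2, Gsdma3, Gsdmc, Gsdmd, Il1b and Il18. They are 10 of 19938 genes with a probe set of their own, and each had 1 such probe set. The set was chosen by measured values of these same arrays: it was selected on Casp1 and Casp4 being higher in K14Snail cells and on Gsdma3 being higher in Mts24 positive cells. The members' genotype and Mts24 differences are therefore given as descriptions, with no test. The CD34 difference, which the choice did not use, was tested and, except for Gsdma3, so was the interaction of genotype and fraction. For Casp1 and Casp4 neither test is independent of the choice. Their interaction compares the genotype differences that chose them. The error of their CD34 test rests on the scatter of those same differences over the fractions, so a steady rise lowers its p-value. Levels are log2 values in which 1 unit is a doubling. The test was limited to genes at or above 7.70, the middle value of the annotated genes, in 2 or more arrays. Casp1, Casp4, Gsdma, Gsdma3, Gsdmc and Il18 passed this filter (6 of 10 members), and Casp12, Gsdma2, Gsdmd and Il1b did not.

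The source was back-skin keratinocytes of CD1 mice, males and females together, at an age of 8 weeks. K14Snail mice carry a Snail transgene under the keratin 14 promoter, which is active in basal keratinocytes, and wild type mice do not. The 8 groups had 1 array each: K14Snail CD34 positive, K14Snail CD34 negative, K14Snail Mts24 positive, K14Snail Mts24 negative and the same 4 fractions of wild type mice. The cells were selected magnetically with antibodies to CD34, which marks the bulge of the hair follicle, or to Mts24, which marks the upper follicle. CD34 arrays held cells pooled from 11 mice and Mts24 arrays cells pooled from 9 mice. No group had a repeat array, so the p-values below measure only what the terms of the fit left over among these 8 arrays. In the fit of fraction and genotype, that includes genotype differences that vary by fraction. The spread between repeat arrays or between mice was not measured.

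The arrays matched their labels. Snai1, which encodes Snail, lay at 10.84 to 11.04 in K14Snail arrays and at 7.86 to 8.16 in wild type arrays. Cd34 was at 13.29 in K14Snail and 13.57 in wild type CD34 positive cells, against 6.27 and 6.12 in the CD34 negative cells. It stood at 11.56 and 12.12 in Mts24 positive cells, and at 10.51 and 10.03 even in Mts24 negative cells. Plet1, whose product carries the Mts24 antigen, was at 12.64 in K14Snail and 12.88 in wild type Mts24 positive cells, against 9.16 and 9.91 in Mts24 negative cells. All 8 keratinocyte markers examined reached 7.70 in every array.

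Inflammatory caspases are proteases that are switched on in inflammasomes, complexes that sensor proteins build on microbial products or cell damage. Caspase-1 is activated on sensors such as Nlrp3 through the adaptor Pycard (ASC), and mouse caspase-4, also called caspase-11, by lipopolysaccharide in the cytosol. They cut gasdermin D, whose released part forms pores in the plasma membrane and can end in the lytic death called pyroptosis. Caspase-1 also cuts the precursors of interleukin 1 beta and interleukin 18. The gasdermin A genes are expressed mainly in skin and upper gut epithelium, and mutations of Gsdma3 cause hair loss in mice.

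Promoters are shown for the caspases because the 3 genes lie next to each other on chromosome 9 and moved together between the genotypes, and for Gsdma3 because it differed most between fractions. The sequences are RefSeq's windows on GRCm38.p6, plus strand, each of 300 bases that end shortly after the start site, and 6 of 10 members had one. Capitals mark matches on either strand to any of 4 motifs: CAGGTG, the E-box that Snail family proteins bind, CANNTG, the general E-box that includes it, TTCNNNGAA, the element bound by STAT factors, and an interferon response element, read as a pair of GAAA with any 2 bases between them.
Casp1, chr9:5298267-5298566: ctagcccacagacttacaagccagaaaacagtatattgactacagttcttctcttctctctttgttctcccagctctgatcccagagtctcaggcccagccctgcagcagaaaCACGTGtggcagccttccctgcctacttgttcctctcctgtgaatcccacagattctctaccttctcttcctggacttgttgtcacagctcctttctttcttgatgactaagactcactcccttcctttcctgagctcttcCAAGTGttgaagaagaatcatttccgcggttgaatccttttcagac
Casp4, chr9:5308599-5308898: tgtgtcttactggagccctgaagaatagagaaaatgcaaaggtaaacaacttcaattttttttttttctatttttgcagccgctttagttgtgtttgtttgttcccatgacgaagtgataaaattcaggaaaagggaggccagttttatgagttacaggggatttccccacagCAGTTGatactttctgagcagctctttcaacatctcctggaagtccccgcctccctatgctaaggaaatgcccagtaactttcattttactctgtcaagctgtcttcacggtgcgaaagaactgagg
Casp12, chr9:5345226-5345525: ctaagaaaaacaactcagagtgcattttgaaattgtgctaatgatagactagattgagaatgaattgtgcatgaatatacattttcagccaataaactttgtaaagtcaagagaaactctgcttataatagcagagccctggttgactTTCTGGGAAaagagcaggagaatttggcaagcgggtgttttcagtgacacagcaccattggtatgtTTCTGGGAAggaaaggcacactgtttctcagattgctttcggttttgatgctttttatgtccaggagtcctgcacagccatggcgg
Gsdma3, chr11:98626099-98626398: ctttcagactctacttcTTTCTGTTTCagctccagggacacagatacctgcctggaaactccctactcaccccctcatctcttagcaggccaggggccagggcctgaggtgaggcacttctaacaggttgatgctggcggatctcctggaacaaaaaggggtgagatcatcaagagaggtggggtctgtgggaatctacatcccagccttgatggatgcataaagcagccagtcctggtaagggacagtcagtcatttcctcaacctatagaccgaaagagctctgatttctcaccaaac
The Casp1 window held 2 general E-boxes, CACGTG at -137 and CAAGTG at 4 from the start site, and the Casp4 window held 1, CAGTTG at -77. The Casp12 window held 2 copies of TTCTGGGAA, at -102 and -36, which match the STAT element. The Gsdma3 window held 1 match to the interferon element, TTTCTGTTTC at -233. None of the 4 windows held the letters CAGGTG or CACCTG. Of all 32851 mouse promoter windows of this length, 20.2% held CAGGTG, 72.3% the general E-box, 8.3% the STAT element and 3.44% the interferon element. A match says only that these letters are present.

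All 3 inflammatory caspases were higher in K14Snail than in wild type cells in each of the 4 fractions. Casp1 (probe set 10582985) stood at 8.89 in CD34 positive, 9.29 in CD34 negative, 9.57 in Mts24 positive and 9.66 in Mts24 negative K14Snail cells. In wild type cells it stood at 8.07, 7.76, 7.98 and 8.23 in the same fractions. The genotypes did not overlap: the lowest K14Snail array lay above the highest wild type array. The differences were 0.82 and 1.52 in the CD34 positive and negative fractions and 1.59 and 1.43 in the Mts24 positive and negative fractions. Their mean was 1.34, or 2.54-fold. In bulk RNA of this kind, fewer cells of a type and less RNA per cell cannot be told apart.

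Casp4 (probe set 10582997) stood at 8.83 in CD34 positive, 9.92 in CD34 negative, 10.57 in Mts24 positive and 10.12 in Mts24 negative K14Snail cells. In wild type cells the levels were 7.30, 8.82, 9.32 and 9.16. Every fraction was higher in K14Snail, while the genotypes overlapped because the CD34 positive fraction was the lowest in each. The differences ran from 0.96 in Mts24 negative to 1.52 in CD34 positive cells, with a mean of 1.21 or 2.31-fold. The wild type CD34 positive array was under 7.70, so the size of Casp4 differences that use it is uncertain.

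Casp12 (probe set 10583008), whose role is less settled than that of Casp1 and Casp4, stood at 7.35 in CD34 positive, 7.53 in CD34 negative, 8.66 in Mts24 positive and 7.05 in Mts24 negative K14Snail cells. Its wild type levels were 4.89, 5.63, 6.59 and 5.21. The genotypes did not overlap, and the Mts24 positive fraction was the highest in each. The mean difference was 2.07 or 4.19-fold, between 1.84 and 2.46 by fraction. Only 1 array reached 7.70, so the size of this difference depends on the background of the array and is uncertain.

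Over all genes, 12.3% were higher in K14Snail in all 4 fractions, 1.2% had every K14Snail array above every wild type array, and 0.271% had a mean difference of at least 1 log2 unit upward. The limma fit over 10720 tested genes called 2.05% of them between the genotypes, 1.14% higher and 0.914% lower, at an adjusted p under 0.05. These shares describe the background of a contrast that chose the members, and nothing is read from the members' place in it. By size of the mean difference, Casp1 ranked 19 and Casp4 26 from the highest of the 10720 tested genes. High places follow from the choice of these 2 genes by this contrast, and Casp12 was not ranked because it did not pass the filter. The 6 genes flanking the caspase cluster, 3 on each side in the RefSeq order, had mean genotype differences between -0.13 and 0.37. Only 1 of them, Msantd4, passed the filter, with a difference of 0.15. The others may lie in the background of the arrays. The caspases are close relatives and can share probe signal.

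**Figure D1:**
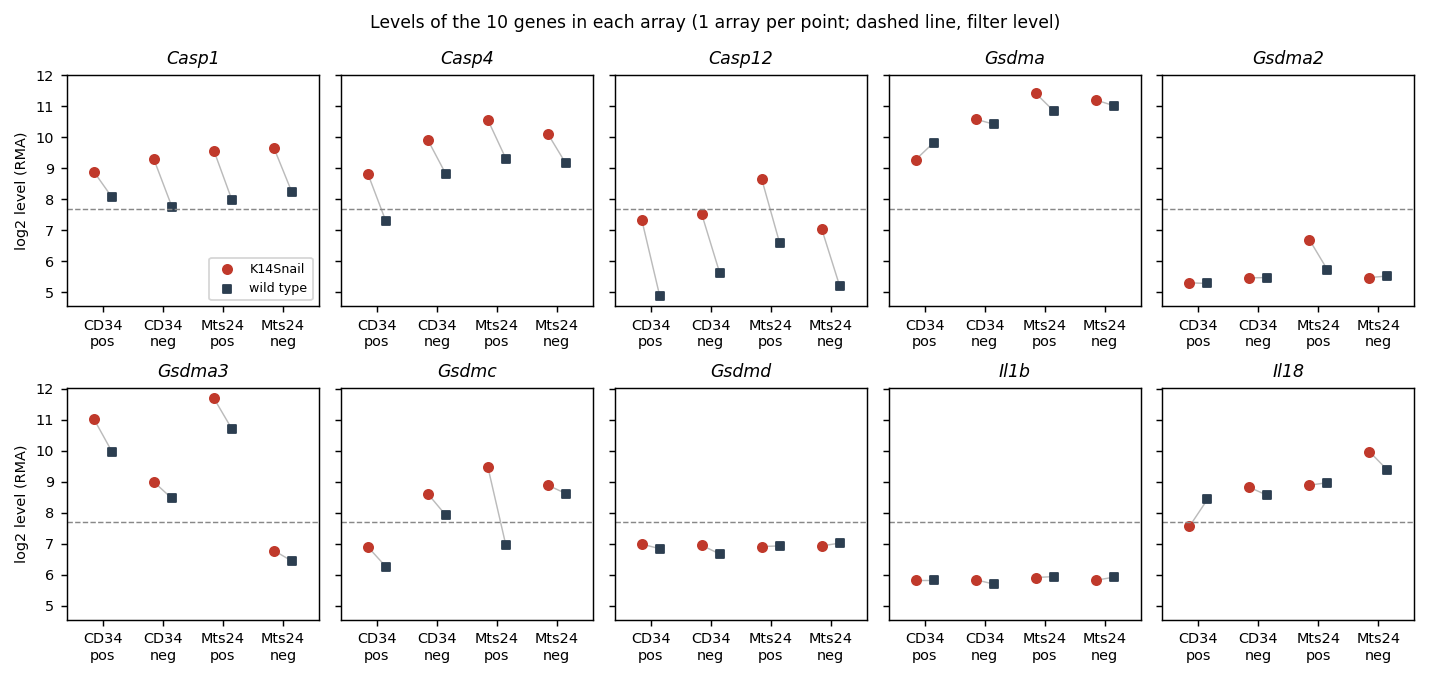
Log2 level (y axis) of each of the 10 genes in the 4 fractions (x axis), with K14Snail arrays as red circles and wild type arrays as dark squares, 1 array per point, grey lines joining the genotypes of a fraction and a dashed line at the filter level of 7.70. Casp1, Casp4 and Casp12 are higher in K14Snail in every fraction, Gsdma3 spans 6.44 to 11.69 across fractions, and Gsdmd and Il1b stay below the line.

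Immune cells are a common source of inflammatory caspases, so 18 myeloid and Langerhans cell markers were set beside them. Their summed level, on the linear scale of the arrays, was 10800 in K14Snail and 4200 in wild type CD34 positive cells, and 12000 and 4140 in Mts24 positive cells. Cd74, H2-Aa and H2-Ab1 were the highest of the 18 in every array and weigh most in these sums. Single markers differed by 0.02 (Cd68) to 3.32 (Lyz2) in CD34 positive cells and by -0.06 (Aif1) to 3.22 (Lyz2) in Mts24 positive cells. In the negative fractions K14Snail had the lower sum: 10900 against 16400 in wild type CD34 negative cells, and 16700 against 18100 in Mts24 negative cells. Averaged over the fractions, 17 of 18 markers were higher in K14Snail, with means from -0.22 for Fcer1g to 1.8 for Lyz2 and 0.02 for Itgam. This average joins positive and negative fractions in which the median marker differed in opposite directions. Cd14 and Aif1 were under 7.70 in every array. In these negative fractions Casp1 was higher in K14Snail by 1.52 and 1.43, and Casp4 by 1.10 and 0.96, where the median marker difference was -0.43 and -0.08. In the positive fractions the median marker difference was 1.17 for CD34 and 0.98 for Mts24, beside 0.82 and 1.59 for Casp1 and 1.52 and 1.26 for Casp4. Casp12 was higher by 1.90 and 1.84 in the CD34 and Mts24 negative fractions and by 2.46 and 2.07 in the positive ones. The part of myeloid and Langerhans cells in the caspase differences was not tested.

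Markers of other cells were set beside the caspases in the same way. The 6 T cell markers summed to 1240 to 7420 in K14Snail and 1510 to 10200 in wild type arrays, and Cd8a was under 7.70 throughout. The 8 neutrophil markers summed to 730 to 1630 in K14Snail and 601 to 1350 in wild type arrays, with Ly6g, Mpo, Ngp, Camp, Ltf and Csf3r under 7.70 in all. The 7 fibroblast markers summed to 885 to 1350 in K14Snail and 824 to 1070 in wild type arrays, with Dcn, Lum, Pdgfra and Dpt under 7.70 in all. By their mean over the fractions, 0 of 6 sebaceous gland markers were higher in K14Snail, with a median difference of -1.44. They summed to 5100 to 12100 in K14Snail and 7570 to 14700 in wild type arrays. By the same mean, 0 of 5 suprabasal keratinocyte markers were higher in K14Snail, with a median difference of -0.32. This median varied by fraction: -1.33 for CD34 positive, 0.02 for CD34 negative, -0.31 for Mts24 positive and 0.01 for Mts24 negative. The part of these cells in the caspase differences was not tested.

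**Figure D2:**
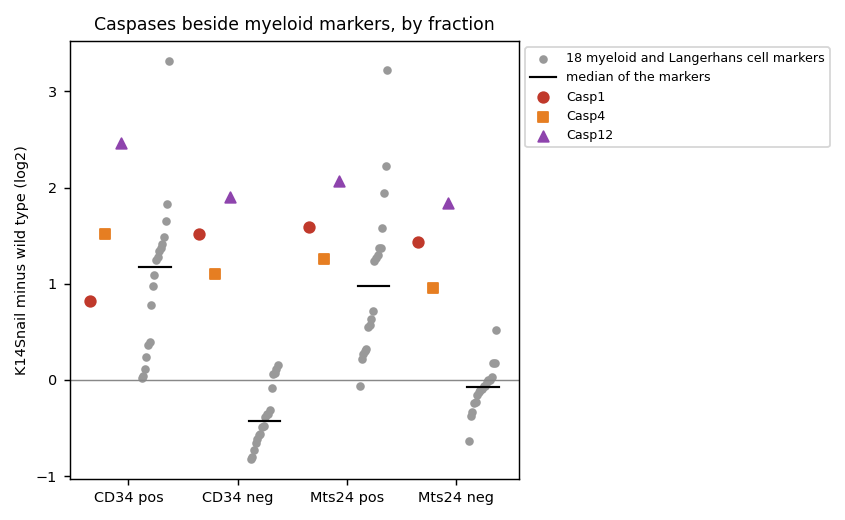
K14Snail minus wild type on the log2 scale (y axis) in each fraction (x axis) for Casp1, Casp4 and Casp12 (coloured symbols) and for 18 myeloid and Langerhans cell markers (grey points, with a black bar at their median). The caspases are above 0 in all 4 fractions, while the marker medians are 1.17 and 0.98 in the CD34 and Mts24 positive fractions and -0.43 and -0.08 in the CD34 and Mts24 negative fractions.

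Among the gasdermins, Gsdma3 (probe set 10380956) varied most. In K14Snail cells it stood at 11.02 in CD34 positive, 8.99 in CD34 negative, 11.69 in Mts24 positive and 6.78 in Mts24 negative cells. Wild type cells had 9.97, 8.46, 10.70 and 6.44. The fractions came in the same order in both genotypes, Mts24 positive, CD34 positive, CD34 negative and Mts24 negative from high to low. The Mts24 positive and CD34 positive fractions overlapped across genotypes, whereas the CD34 negative arrays lay below both and the Mts24 negative arrays lowest. Mts24 positive minus negative was 4.91 in K14Snail and 4.25 in wild type cells, a mean of 4.58 or 23.9-fold. It ranked 2 of 10720, a high place that follows from the choice of Gsdma3 by this contrast. Both Mts24 negative arrays were under 7.70, so the size of the Mts24 difference is uncertain. The sum of 6 upper follicle markers, on the linear scale, was 48800 in K14Snail and 45100 in wild type Mts24 positive cells, against 16000 and 16200 in Mts24 negative cells. The sum of 7 bulge markers was 12400 and 17300 in Mts24 positive cells, against 6190 and 6540 in Mts24 negative cells. The part of these populations in the Gsdma3 difference was not tested. The K14Snail minus wild type difference of Gsdma3 averaged 0.73 (1.66-fold) and ranged from 0.34 in Mts24 negative to 1.05 in CD34 positive cells.

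Gsdma and Gsdma2 adjoin Gsdma3 on chromosome 11 and had other patterns. Gsdma (probe set 10380976), which encodes the gasdermin cut by a streptococcal protease in skin, was high in all arrays. It stood at 9.28 in CD34 positive, 10.59 in CD34 negative, 11.43 in Mts24 positive and 11.21 in Mts24 negative K14Snail cells. Wild type cells had 9.83, 10.43, 10.86 and 11.03. The genotypes overlapped, the mean difference was 0.09, and K14Snail was lower in CD34 positive cells alone (-0.56). Gsdma2 (probe set 10380965), which encodes another gasdermin A protein, lay between 5.29 and 5.73 in 7 arrays and at 6.70 in K14Snail Mts24 positive cells, under 7.70 throughout. The 6 genes flanking the gasdermin A cluster had Mts24 differences between -0.24 and 0.17, and 3 of them passed the filter. The close gasdermin A copies can share probe signal.

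Gsdmc (probe set 10428943), a gasdermin whose human counterpart is cut by caspase-8, stood at 6.90 in CD34 positive, 8.61 in CD34 negative, 9.48 in Mts24 positive and 8.89 in Mts24 negative K14Snail cells. Wild type cells had 6.26, 7.92, 6.96 and 8.62. K14Snail was higher in every fraction, by 0.27 to 0.69 in 3 of them and by 2.52 in Mts24 positive cells. The mean of 1.03 (2.04-fold) thus rests largely on that 1 pair, and was 0.53 without it. Both CD34 positive arrays and the wild type Mts24 positive array were under 7.70, so the size of Gsdmc differences that use them is uncertain. Mts24 positive minus negative was 0.59 in K14Snail and -1.67 in wild type cells. Gsdmc has close copies that can share its signal, and Gsdmc2 was also highest in K14Snail Mts24 positive cells, at 7.48 against 6.08 to 6.72 elsewhere.

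Gsdmd (probe set 10424731), the pore former cut by the inflammatory caspases, lay between 6.91 and 6.99 in K14Snail arrays and between 6.67 and 7.02 in wild type arrays. Its 8 values spanned 0.35 log2 units and stayed under 7.70. A level under the filter may be low or not measured, and these data do not separate these cases.

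Of the cytokines that caspase-1 matures, Il1b (probe set 10487597) lay at 5.82 to 5.91 in K14Snail arrays and at 5.70 to 5.94 in wild type arrays, all under 7.70. Il18 (probe set 10585194) was measured at 7.56 in CD34 positive, 8.82 in CD34 negative, 8.89 in Mts24 positive and 9.97 in Mts24 negative K14Snail cells. Wild type cells had 8.43, 8.56, 8.97 and 9.38. The genotypes overlapped and the mean difference was -0.03. By fraction the difference was -0.87 and -0.08 in the CD34 and Mts24 positive cells and 0.26 and 0.59 in the CD34 and Mts24 negative cells. Mts24 positive minus negative was -1.09 in K14Snail and -0.41 in wild type cells.

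**Figure D3:**
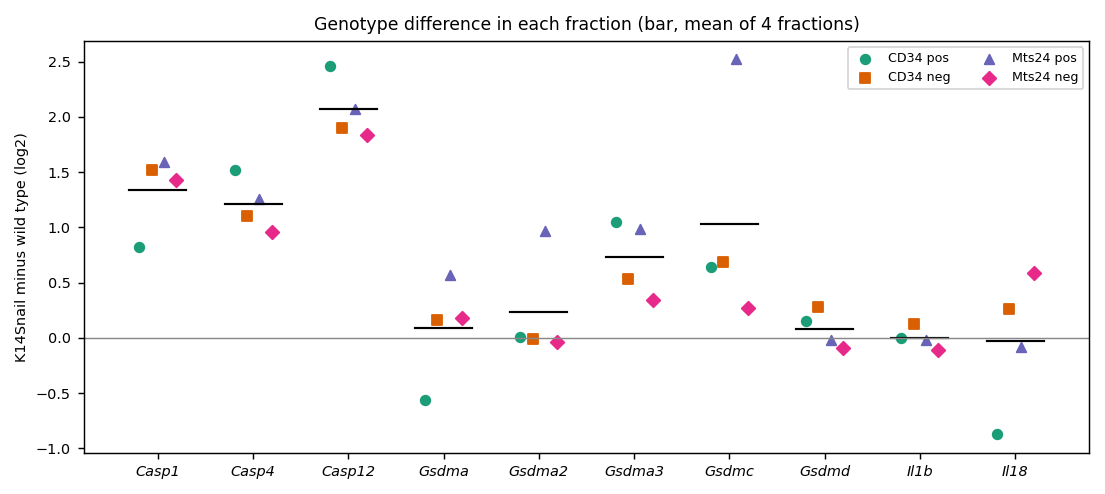
K14Snail minus wild type on the log2 scale (y axis) for each of the 10 genes (x axis), with 1 point per fraction (symbols and colours in the legend) and a bar at the mean of the 4 fractions. The 3 caspases, Gsdma3 and Gsdmc are above 0 in all 4 fractions, with means of 1.34, 1.21, 2.07, 0.73 and 1.03, and the Gsdmc mean is carried by the Mts24 positive pair at 2.52.

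The CD34 contrast asked how the members differ between bulge cells and the rest. Casp4 was lower in CD34 positive cells and Gsdma3 higher, by limma over 2 pairs of arrays. The error for Casp4 rests on the scatter of the genotype differences that chose it, so its p-value is not independent of the choice. The Casp4 difference was -1.09 in K14Snail and -1.51 in wild type cells, -1.30 ± 0.15 in the fit (SE, limma adjusted p = 0.00309), a level 0.406 times that of the negative fraction. The Gsdma3 difference was 2.02 in K14Snail and 1.51 in wild type cells, 1.77 ± 0.20 in the fit (3.4-fold, limma adjusted p = 0.00259). Both calls held when any 1 array was left out. The background is wide, since 23.7% of all tested genes were called here, 12.1% higher and 11.6% lower.

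The other 4 tested members did not pass. Casp1 differed by -0.05 ± 0.21 (limma adjusted p = 0.896), with -0.40 in K14Snail and 0.30 in wild type cells. Gsdma was lower in both genotypes, by -0.96 ± 0.27 (limma adjusted p = 0.0555). It passed with no pool block (adjusted p = 0.0395), with the pool as a fixed block (0.0387), without the wild type CD34 positive array (-1.41, adjusted p = 0.00488) and without either Mts24 positive array (0.045). Gsdmc was lower by -1.68 ± 0.54 (limma adjusted p = 0.0759), with -1.71 in K14Snail and -1.66 in wild type cells, and passed without either Mts24 positive array (adjusted p = 0.00455). Il18 differed by -0.70 ± 0.35 (limma adjusted p = 0.213), and by -1.26 without the wild type CD34 positive array (adjusted p = 0.0143). Casp12 and Gsdma2, which were not tested, differed by -0.19 and -0.17 in K14Snail and by -0.75 and -0.19 in wild type cells.

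Other cell populations moved with this comparison. The summed linear level of 5 suprabasal keratinocyte markers was 14500 in K14Snail and 29900 in wild type CD34 positive cells, against 38900 and 40800 in the CD34 negative cells. The sum of 6 T cell markers was 1840 in K14Snail and 1540 in wild type CD34 positive cells, against 5840 and 7690 in the CD34 negative cells. The sum of 7 bulge markers was 31200 in K14Snail and 40500 in wild type CD34 positive cells, against 3570 and 6440 in the CD34 negative cells. The part of these populations in the members' CD34 differences was not tested.

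**Figure D4:**
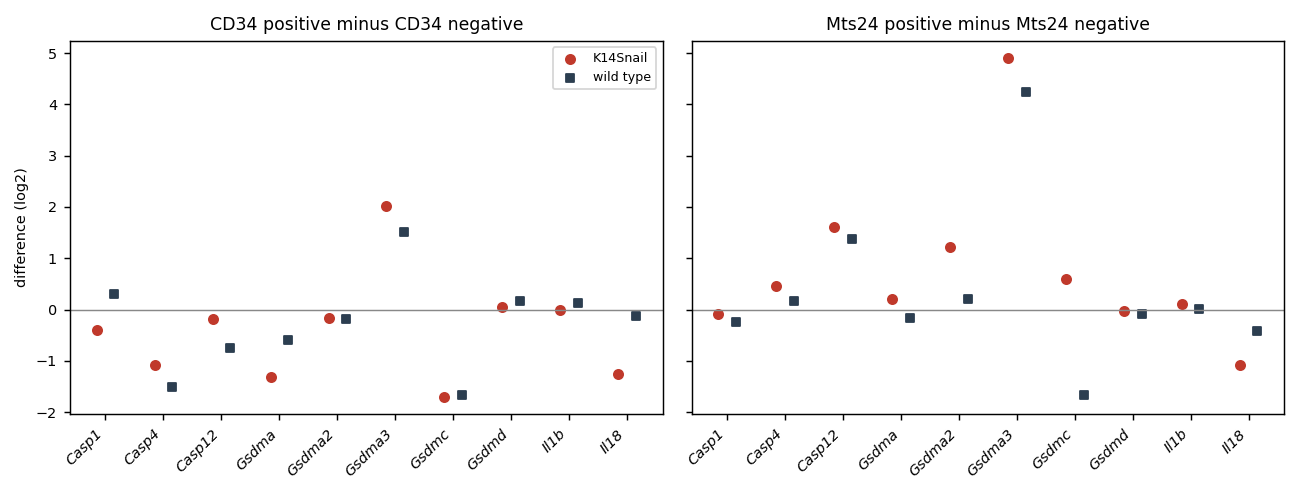
Positive minus negative fraction on the log2 scale (y axis) for each of the 10 genes (x axis), in the CD34 sort (left) and the Mts24 sort (right), with K14Snail as red circles and wild type as dark squares, 1 pair of arrays per point. Gsdma3 is above 0 in all 4 pairs and reaches 4.91 in the Mts24 sort, and Casp4 is below 0 in the CD34 pairs and above 0 in the Mts24 pairs.

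The interaction asked, in 1 term shared by the CD34 and Mts24 sorts, whether positive minus negative differs between the genotypes. This term averages the sorts and tests neither alone. The genotype change in positive minus negative had the same sign in both sorts for Casp4 and Il18, and opposite signs for Casp1, Gsdma and Gsdmc. The interaction was tested for 5 members. For Casp1 and Casp4 it compares the genotype differences that chose them, so that test is not independent of the choice. Gsdma3 was left out because its Mts24 difference chose the set, and its differences by genotype are given above. None of the 5 passed, and 0.0% of the tested genes did, with 7.88% at an unadjusted p under 0.05 (845 genes by limma; 1060 with no pool block, again with 0 called). The largest of the 5 values was that of Gsdmc, 1.10 ± 0.65 (limma adjusted p = 0.789), followed by Il18 with -0.91 ± 0.34 (adjusted p = 0.616). Casp1 had -0.27 ± 0.29 (limma adjusted p = 0.897), Casp4 0.36 ± 0.17 (0.719) and Gsdma -0.17 ± 0.41 (0.96). With 1 array left out, the fit has a single residual degree of freedom, and some calls appeared: Il18 at -1.33 without either Mts24 positive array (adjusted p = 0.0109), Gsdma at -0.73 without the same arrays (0.0464), and Gsdmc at 2.01 without either CD34 positive array (0.0221). Gsdma changed sign in others of these fits, between -0.73 and 0.40.

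Genes that work with the members were taken as 9 lists of 85 genes in all, of which 70 were on the array and 37 passed the filter. Between the genotypes 2 of 37 rose in K14Snail (5.41%) and 0 fell, where the same fit called 1.14% of all tested genes higher and 0.914% lower. Both are GTPases that interferon induces. They come from a list of guanylate-binding proteins and related genes with 7 on the array, of which 2 were tested. The 5 genes not tested lay between 5.12 and 6.83. Guanylate-binding proteins such as Gbp7 coat intracellular bacteria, and some of the family help caspase-11 to sense them. Gbp7 stood at 8.97 in CD34 positive, 8.58 in CD34 negative, 8.68 in Mts24 positive and 7.99 in Mts24 negative K14Snail cells, against 8.26, 7.69, 8.00 and 7.27 in wild type cells. It rose by 0.75 ± 0.06 (1.68-fold, limma adjusted p = 0.0111). Irgm1 lay between 8.03 and 8.62 in K14Snail and between 7.06 and 7.87 in wild type arrays, with no overlap, and was higher in K14Snail in all 4 fractions. It rose by 0.98 ± 0.11 (limma adjusted p = 0.0277). The negative pool correlation of the fit narrows genotype errors. Without the pool block 1 of the 37 rose, against 0.177% of all tested genes: Gbp7 passed (adjusted p = 0.0242) and Irgm1 did not (0.0565). Each lost its call in 6 of the 8 fits that left out 1 array, those without a CD34 negative, Mts24 positive or Mts24 negative array. These 8 come in equal pairs, since leaving out either array of a fraction gives the same genotype difference. Over them the rise was 0.70 to 0.78 for Gbp7 and 0.83 to 1.03 for Irgm1.

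The interferon transcription factor Irf1 differed by 0.82 but did not pass (limma adjusted p = 0.0775), nor did any other of 9 tested transcription factors of the interferon and NF-kB response. Irf7 lay between 7.81 and 8.49 in K14Snail arrays and between 7.41 and 7.66 in wild type arrays, so it passed the filter only through K14Snail. Ripk3, a kinase of the necroptosis pathway, differed by 0.47 (limma adjusted p = 0.0786). Cathepsin S (Ctss), a lysosomal protease, differed by 0.70 on average (limma adjusted p = 0.181), with 1.53 and 1.38 in the CD34 and Mts24 positive fractions and -0.15 and 0.03 in the negative ones, beside median myeloid marker differences of 1.17, 0.98, -0.43 and -0.08 in the same order. The part of myeloid cells in it was not tested. None of 5 apoptotic and epidermal caspases passed: Casp6 differed by 0.36 (limma adjusted p = 0.0803) and Casp8, the initiator caspase of death receptors, by 0.22 (0.243). The inflammasome adaptor Pycard was high in all arrays, 10.82 to 11.72 in K14Snail and 10.79 to 11.80 in wild type cells, and its genotype difference was 0.05 (limma adjusted p = 0.755). The sensors Nlrp1a, Nlrp1b, Nlrp3, Nlrc4 and Aim2 stayed under 7.70 in every array, between 5.14 and 6.74.

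In CD34 positive cells 2 of the 37 rose and 10 fell (32.4% called), where 23.7% of all tested genes were called, 12.1% higher and 11.6% lower. Of 9 tested receptors and adaptors of the interleukin 1 family, 7 fell, with a list median of -0.87 against -0.03 over all tested genes. Il1rl2, a receptor for interleukin 1 relatives made in skin, fell by 1.64 ± 0.10 (limma adjusted p = 0.000444). The decoy receptor Il1r2 fell by 2.82 ± 0.43 (limma adjusted p = 0.00722). The shared co-receptor Il1rap differed by -1.11 ± 0.10 (limma adjusted p = 0.00149) and the kinase Irak2 was at 0.499 times its CD34 negative level (0.0246). Among 5 tested ligands and antagonists, Il33, an epithelial alarmin, fell by 2.40 ± 0.22 (limma adjusted p = 0.00148), and the receptor antagonist Il1rn fell by 1.88 ± 0.14 (0.000732). Pycard fell by 0.85 ± 0.16 (limma adjusted p = 0.0153). Ninj1, which ruptures the membrane of dying cells, rose by 0.81 ± 0.12 (limma adjusted p = 0.0074) and Gbp7 by 0.48 ± 0.10 (0.0184). Of these 12 calls, 4 held when any 1 array was left out, those of Il1rn, Il33, Il1rap and Il1rl2. The suprabasal and T cell sums given above moved in the same direction as the fallen genes. The myeloid sum was 10800 in K14Snail and 4200 in wild type CD34 positive cells, against 10900 and 16400 in CD34 negative cells. The part of these cells was not tested.

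In Mts24 positive cells 4 of the 37 rose and 8 fell (32.4% called), where 22.8% of all tested genes were called, 11.1% higher and 11.7% lower. Ninj1 rose by 0.89 ± 0.12 (limma adjusted p = 0.0082), Gbp7 by 0.71 ± 0.10 (0.00752), Ripk3 by 0.70 ± 0.17 (0.0377) and Irak3, an inhibitor of interleukin 1 signalling in macrophages, by 0.55 ± 0.15 (0.0485). Irak2 fell by 1.46 ± 0.22 (limma adjusted p = 0.00976), and the ubiquitin ligase Traf6 fell by 0.98 ± 0.11 (0.00437). Il1f10, an interleukin 1 relative counted among the 8, differed by -1.34 (limma adjusted p = 0.0292), but it reached 7.70 only in the 2 Mts24 negative arrays and so was tested only through the fraction in which it was high. The skin sensor Nlrp10 fell by 0.75 ± 0.11 (limma adjusted p = 0.00895), and Pycard fell by 0.62 ± 0.16 (0.0441). The receptor antagonist Il1rn and the co-receptor Il1rap differed by -0.65 and -0.45 (limma adjusted p = 0.0245 and 0.0314). Of these 12 calls only that of Traf6 held when any 1 array was left out. With the pool as a fixed block 4 of them ended, those of Pycard (adjusted p = 0.0532), Il1f10 (0.0535), Ripk3 (0.0553) and Irak3 (0.0655). The suprabasal sum was 25400 in K14Snail and 33000 in wild type Mts24 positive cells, against 50200 and 49600 in Mts24 negative cells. The T cell sum was 1240 in K14Snail and 1510 in wild type Mts24 positive cells, against 7420 and 10200 in Mts24 negative cells. The myeloid sum was 12000 in K14Snail and 4140 in wild type Mts24 positive cells, against 16700 and 18100 in Mts24 negative cells. The part of these cells was not tested.

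Over the 8 arrays, which share genotypes and fractions, the tested genes most like Casp1 by Pearson correlation were Aff2 (0.938), Snai1 (0.933), Senp5 (0.928), Mrps12 (0.912) and Pgm1 (0.897). Those most like Casp4 were Sprr1b (0.976), Bhlhe40 (0.97), Galnt6 (0.964), Lynx1 (0.964) and Bcl3 (0.963). Those most like Gsdma3 were Adgrl3 (0.994), Itgb8 (0.991), Krt17 (0.991), Vangl1 (0.989) and Rnf141 (0.989). Senp5 and Mrps12 ran over 9.14 to 9.37 and 7.92 to 8.03, a small range. Among the members, Casp4 and Gsdmc correlated at 0.86, Gsdma and Il18 at 0.85, Casp1 and Casp4 at 0.73 and Gsdma3 and Il18 at -0.66. Casp1 and Gsdma3 correlated at 0.05. Casp1 and Casp4 were chosen for their genotype difference and Gsdma3 for its Mts24 difference on these same arrays. Their likeness to genes that follow those differences, such as that of Casp1 to Snai1, therefore follows in part from the choice. These correlations describe 8 arrays and carry no test.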

How the data were processed

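Total RNA of sorted cells pooled over mice was hybridised to 8 Affymetrix arrays, 1 per group. The authors deposited log2 values per probe set, which the submitters' processing notes credit to RMA (background correction, normalization across arrays and summary over probes). Its version and the genome build are not given in the sources used here. Values ran from 3.04 to 14.49 and array medians from 7.32 to 7.42. The number of arrays limits the precision.

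Of 28874 probe sets, 21789 had 1 gene symbol in the platform annotation, 1621 several and 5464 none, and 21698 matched current genes by Entrez identifier, with 0 symbols changed. The probe set of highest mean represented each of 19938 genes, and 10720 were tested. limma 3.58.1 in R 4.3.3 (statmod 1.5.0) fitted terms for fraction and genotype, and took arrays of 1 genotype and marker as a pool in a random block (correlation -0.175; 3 residual and 2.78 prior degrees of freedom; 2 and 3.08 for the interaction). The pairing of positive with negative fractions rests on their equal pool sizes. P-values were Benjamini-Hochberg adjusted over all tested genes, and errors are standard errors. The fits of the CD34 and genotype contrasts were tested on simulated data. The limit on false calls in that test was not applied to the genotype contrast with the pool block. Tables and plots used Python 3.11.15, pandas 2.3.3, numpy 2.4.6 and matplotlib 3.10.9.

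The members and lists were chosen with earlier results of these data known. Genes named are the members, up to 4 called genes per list and comparison or else the 1 or 2 of largest difference, the 5 most like 3 members, and Snai1, Cd34 and Plet1. Genes Il1f6, Il1f8, Il1f9 and Gm12250 were matched under their array symbols. Alternatives were no block, a fixed block, quantile normalization, other filters, trended robust variances, the mean of probe sets, and leaving out each array.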

Additional observations from a re-analysis of the deposited data

Results flagged for a closer look

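Casp4 was lower in the positive than in the negative fraction of the CD34 sort in both genotypes, and higher in the positive fraction of the Mts24 sort in both. The CD34 minus the Mts24 difference was -1.61 on the log2 scale, from -1.30 and 0.31. This difference was not tested, because the Mts24 contrast was used to choose the members. Opposite signs in the 2 sorts in both genotypes were found in 9.69% of tested genes.

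The K14Snail minus wild type difference of Il18 was below 0 in both positive fractions and above 0 in both negative fractions, and the means differed by -0.91. The limma interaction did not pass (adjusted p = 0.616). Of all tested genes, 4.24% had such signs.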

How the results depend on the processing

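Between the genotypes limma called 220 genes, but 41 with no pool block, and 5 to 75 when 1 array was left out. CD34 positive cells differed in 2542 genes, in 1154 to 2280 with 1 array left out and in 2365 to 2868 under the other alternatives. Mts24 positive cells differed in 2448, with 661 to 2897 when 1 array was left out and 2221 to 2816 otherwise. The interaction called 0 genes, and 0 to 651 when 1 array was left out, with 104 without a CD34 positive array and 651 without an Mts24 positive one. With 7 arrays the pool correlation could not be estimated, and that of 8 arrays was kept. With the pool as a fixed block, the paired fit (replicate block), 2436, 2221 and 0 genes were called for CD34, Mts24 and the interaction, and of the members' calls only that of Gsdma in the CD34 comparison changed (adjusted p = 0.0387). It also ended 4 pathway calls in the Mts24 comparison and none of the 12 in the CD34 comparison. This fit has no genotype value, since each pool has 1 genotype.

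Casp4 and Gsdma3 kept their CD34 calls in every alternative, with -1.51 to -1.09 and 1.56 to 1.97 when 1 array was left out (limma adjusted p at most 0.0311 and 0.0273). With 1 array left out, Casp1 changed sign in the CD34 comparison (-0.40 to 0.30) and in the interaction (-0.65 to 0.11), as did Gsdma in the interaction (-0.73 to 0.40). The causes of these changes were not tested beyond the smaller number of arrays. Among the members' untested differences, leaving out a pair turned the sign of the genotype difference of Gsdma (-0.07 to 0.30), Il18 (-0.23 to 0.26), Gsdma2 (-0.01 to 0.32) and Il1b (-0.04 to 0.04) and of the Mts24 difference of Gsdmc (-1.67 to 0.59) and Gsdma (-0.17 to 0.21). Genes under 7.70 may lie in the background of the arrays, which limits Casp12, Gsdma2, Gsdmd and Il1b. Some arrays of tested members were also under 7.70, beside those of Gsdma3. They were Casp4 at 7.30 in wild type and Il18 at 7.56 in K14Snail CD34 positive cells. Gsdmc was at 6.26 in wild type and 6.90 in K14Snail CD34 positive cells, and at 6.96 in wild type Mts24 positive cells. The size of differences that use these arrays is uncertain.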
